A study of Mus musculus with 5 samples.

Results

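The genes described here encode the cell's receptors for extracellular matrix and the proteins that join those receptors to the actin cytoskeleton. They were chosen by gene symbol, and all 42 were found among the 23997 rows of the expression table. They divide into 25 receptors and 17 intracellular adaptors. The receptors are 12 integrin alpha subunits, 8 integrin beta subunits and 5 other matrix receptors or integrin partners. RNA came from whole kidneys of mice aged 8 weeks. There were 3 libraries whose genotype label is Uninduced control (control 0, 1 and 2) and 2 labelled Pkd1 knockout (knockout 0 and 1), titled SKO. The series' design text calls the mutants PkdTKO, and neither name is explained. The labels name no other allele, no promoter or agent that induces the deletion, no strain and no sex, nor do they tie libraries to separate animals. P-values therefore measure the spread among these libraries alone, which may be technical.

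An integrin is a heterodimer of an alpha and a beta subunit, and the pairing sets which matrix protein it binds. Outside the cell, integrins of tubule epithelium hold laminin, collagen IV and nephronectin of the tubule basement membrane. Inside, talin and kindlin bind the tail of the beta subunit, and vinculin, paxillin, zyxin, tensin and the complex of integrin-linked kinase, PINCH and parvin link it to actin. Focal adhesion kinase and p130Cas carry the signal onward. Basement membranes around cystic tubules are known to be thickened and altered in composition, and the series asked what metalloproteinases do in that remodelling and in cyst growth.

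Transcript level was given as FPKM, fragments scaled by transcript length and by the number of mapped fragments, a scale per length on which genes can be set side by side. Pkd1, which encodes polycystin-1, measured 3.22, 3.51 and 3.49 FPKM across controls, 2.72 for knockout 0 and 3.60 for knockout 1. The groups overlapped, so the level of the whole gene does not check the genotype labels. Here "knockout" therefore means the library labelled so. Depth was not stated, but the steps between low values placed the libraries at 0.67 to 1.09 times the depth of control 0 among controls, 0.57 times in knockout 0 and 1.33 times in knockout 1. The libraries also differed in sex chromosome transcripts. Xist was at 0.0222 to 0.0275 across controls, 30.8 for knockout 0 and 80.3 for knockout 1, and Ddx3y at 17.8 to 18.6, 7.30 and 0.00194. Knockout 0 thus held Xist and Y-linked RNA together, with Eif2s3y at 8.14 against 20.3 to 24.5 across controls and Uty at 2.95 against 6.90 to 7.43, and whether it is RNA of 1 animal is not given. Controls held Y-linked RNA and almost no Xist, and knockout 1 the reverse, so sex and genotype cannot be told apart here. Markers of proximal and distal tubule, collecting duct, podocytes and endothelium were present in all libraries. Aqp1 was at 415.2 to 464.6 across controls, 300.2 for knockout 0 and 366.5 for knockout 1. Slc12a1 was at 195.7 to 291.5, 114.3 and 294.3. The summed FPKM of 8 proximal tubule markers was 1135 to 1210, 964.0 and 1002. For 8 collecting duct markers it was 517.7 to 620.4, 415.7 and 583.9, and for 7 podocyte markers 110.1 to 141.5, 103.1 and 151.1. Lrp2 and Slc34a1 of the proximal tubule were listed at 0 in every library and Umod of the loop of Henle in the 3 controls, values that can be failed estimates. Without Umod, the loop and distal tubule markers summed to 682.2 to 767.9, 359.9 and 702.3. Tubule injury markers set the knockout libraries apart from each other. All 6 lay above every control in knockout 0 and 3 of 6 in knockout 1, against 34.2% and 38.4% of all genes. The summed FPKM of the 6 was 144.0 to 169.0 across controls, 657.5 for knockout 0 and 114.8 for knockout 1. The part of injury in the results was not tested.

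Calls among these genes fell on receptors and not on adaptors. Of 20 receptors tested, 5 rose and 0 fell (limma, Benjamini-Hochberg adjusted p under 0.05 over 12640 genes), and of 17 adaptors 0 rose and 0 fell. Over all 12640 genes 2.73% were called higher and 3.62% lower. The 5 receptors were Itga6, Itga1, Itgav, Itga3 and Ddr2. At an unadjusted p under 0.05, 12 receptors were higher and 1 lower, and 3 adaptors were higher and 1 lower, against 12.5% of all genes higher and 16.6% lower. Both knockout libraries lay above every control in 14 of the 20 receptors and 6 of the 17 adaptors, where 21.9% of all genes did. Both lay below every control in 1 receptor and 1 adaptor, against 26.3% of all genes. The call of 5 rested on all controls. It was 0 without control 0 (0.293% of all genes called in either direction), 1, Itga6, without control 1 (1.23%) and 0 without control 2 (0.285%). Without knockout 0 it was 6, all higher (8.34%), and without knockout 1 it was 18, of which 17 were higher (20.6%). These last fits hold 1 knockout library, which is assumed to vary as the controls do. It was also smaller with no filter on low values (1 member, 1.03% of all genes), after quantile normalization (3, 4.58%), with no variance trend (3, 5.82%) and with the replicate number as a term (0, 0.222%).

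The median log2 fold change, on the scale of log2(FPKM + 1), was 0.42 over the 20 tested receptors, 0.06 over the 17 adaptors and -0.02 over all 12640 genes. Against the control mean, the receptors' median was 0.51 in knockout 0 and 0.28 in knockout 1, and the adaptors' was 0.04 and 0.06. Knockout 0 was above every control in 15 receptors and 8 adaptors, against 34.2% of all genes. Knockout 1 was above every control in 16 receptors and 8 adaptors, against 38.4%. The lists were compared by these counts and medians only, and the difference between them was not tested. The 25 receptors summed to 511.3, 501.4 and 507.7 FPKM across controls, 745.2 for knockout 0 and 631.8 for knockout 1. The 17 adaptors summed to 584.5, 528.9 and 572.4 FPKM across controls, 538.6 for knockout 0 and 537.7 for knockout 1. Receptor RNA was thus above every control in both knockout libraries, and adaptor RNA lay inside the range of the controls. The latter rested on Tns1, the most abundant adaptor. Without it the other 16 adaptors summed to 419.9, 408.7 and 410.4 across controls, 438.0 for knockout 0 and 420.95 for knockout 1, with both knockout libraries above every control. Without Itgb1, the most abundant receptor, the receptor sum was 419.7 to 427.6 across controls, 627.2 and 536.5. These sums were chosen after seeing the data. The ratio of receptors to adaptors was 0.875, 0.948 and 0.887 across controls, 1.38 for knockout 0 and 1.18 for knockout 1 over all 42 genes. It was 1.02 to 1.03, 1.43 and 1.27 without Tns1 and Itgb1. All 37 tested genes had a mean FPKM of at least 1 in the controls as well as in the knockout libraries, so none was tested only because it was high in the knockouts. The 5 genes under the filter were all receptors.

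**Figure D1:**
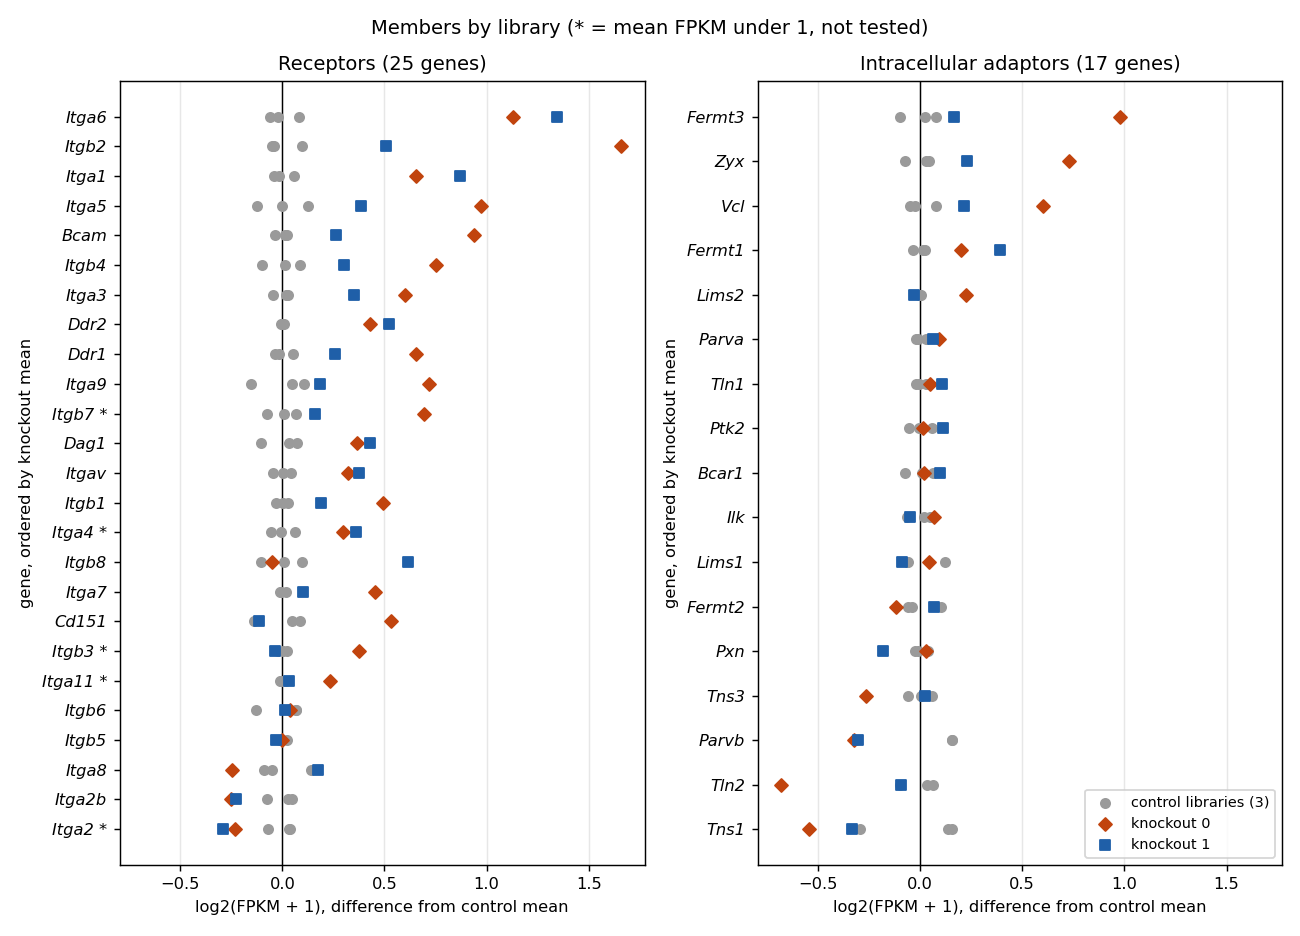
Difference of log2(FPKM + 1) from the control mean for the 25 receptors (left) and 17 intracellular adaptors (right), 1 row per gene. Grey circles are the 3 control libraries, diamonds knockout 0 and squares knockout 1, and an asterisk marks the 5 genes with a mean FPKM under 1. Itga6 lies at 1.13 in knockout 0 and 1.35 in knockout 1, whereas the adaptors' medians are 0.04 and 0.06.

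Among the alpha subunits, which carry much of the ligand specificity, 4 of 9 tested rose, against 2.73% of all genes. Itga6 encodes the subunit that pairs with Itgb4 in hemidesmosomes and with Itgb1 elsewhere, and binds laminin. It stood at 29.2, 32.3 and 29.9 FPKM in control 0, 1 and 2, against 67.8 for knockout 0 and 78.9 for knockout 1. Knockout 0 stood at 2.23 times and knockout 1 at 2.59 times the control mean, with no overlap. On the log2 scale it rose by 1.24 (SE 0.0952, 95% interval 1.00 to 1.48), with a limma adjusted p of 0.00778. It was positive under all 14 alternative settings, from 1.13 to 1.35, and the adjusted p was 0.0766 without control 0 and 0.0845 without control 2. Itga6 made up 30.1% to 30.7% of summed alpha subunit FPKM across controls, 41.0% for knockout 0 and 45.5% for knockout 1. The gene (ENSMUSG00000027111.15) lies on mm10 chromosome 2 from 71745616 to 71858416, plus strand.

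Itga1 encodes a collagen-binding subunit that pairs with Itgb1. Its level read 9.73, 10.3 and 9.53 FPKM across controls, 16.1 for knockout 0 and 18.8 for knockout 1. As with Itga6, both knockout libraries stood clear of the controls and knockout 1 was the higher. The log2 fold change was 0.76 (SE 0.0883, limma adjusted p = 0.0198), and adjusted p was 0.124 without control 0, 0.0693 without control 1 and 0.159 without control 2. Itga1 lies on chromosome 13 (114953096 to 115101964, minus strand), 20995 bases from Itga2, which encodes another collagen-binding subunit and is read from the same strand. Itga2 was too low to be tested and differed in the opposite direction, reading 0.432, 0.438 and 0.334 FPKM across controls, 0.192 for knockout 0 and 0.143 for knockout 1. Both knockout libraries were below every control for Itga2.

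Itgav, whose dimers bind RGD-containing ligands such as vitronectin and latent TGF-beta, measured 30.7, 32.7 and 31.9 FPKM across controls, 39.98 for knockout 0 and 41.6 for knockout 1. The knockout libraries lay close together and above every control. The log2 fold change was 0.35 (SE 0.0674, limma adjusted p = 0.0471). Itga3, another laminin receptor subunit that joins Itgb1 and is needed for the glomerular and tubular basement membrane, measured 12.2, 12.9 and 12.8 FPKM across controls, 19.7 for knockout 0 and 16.4 for knockout 1. Here knockout 0 was the higher, and neither knockout library overlapped the controls. The log2 fold change was 0.48 (SE 0.0942, adjusted p = 0.0493). Both calls were close to the threshold and were lost without any single control, with adjusted p between 0.108 and 0.219 for Itgav and between 0.126 and 0.213 for Itga3. Without knockout 0 they were 0.0545 and 0.0571.

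The other alpha subunits differed among themselves. Itga5, the fibronectin receptor subunit, measured 2.09, 2.68 and 2.37 FPKM across controls, 5.61 for knockout 0 and 3.40 for knockout 1 (log2 change 0.68, SE 0.192, limma adjusted p = 0.095). Itga9, which binds tenascin-C and osteopontin, measured 2.39, 3.06 and 2.89 FPKM across controls, 5.20 for knockout 0 and 3.28 for knockout 1 (0.45, SE 0.182, adjusted p = 0.176). Both knockout libraries lay above every control for both genes, knockout 0 the higher, and for Itga9 knockout 1 was only just above control 1. Itga2b, the platelet fibrinogen receptor subunit, measured 2.07, 2.35 and 2.30 FPKM across controls, 1.72 for knockout 0 and 1.77 for knockout 1 (-0.24, SE 0.0928, adjusted p = 0.165), so it lay below every control. Itga7, a laminin receptor subunit best known from muscle, averaged 3.12 ± 0.0501 (SD, n = 3) across controls, 4.63 for knockout 0 and 3.41 for knockout 1. Itga8, the nephronectin receptor subunit of kidney mesenchyme, measured 3.83, 4.51 and 3.69 FPKM across controls, 3.22 for knockout 0 and 4.63 for knockout 1, so its groups overlapped. Its ligand gene Npnt rose from 78.6 ± 6.12 to 139.6 and 161.5 (adjusted p = 0.0198). The ratio of Itga8 to Npnt FPKM was therefore 0.0465 to 0.0535 across controls, 0.0231 for knockout 0 and 0.0287 for knockout 1. Itga4, which binds fibronectin and VCAM-1, and Itga11, a collagen-binding subunit of fibroblasts, were under the filter. Itga4 was at 0.540 to 0.670 across controls, 0.961 for knockout 0 and 1.05 for knockout 1, and Itga11 at 0.0280 to 0.0480, 0.217 and 0.0591.

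**Figure D2:**
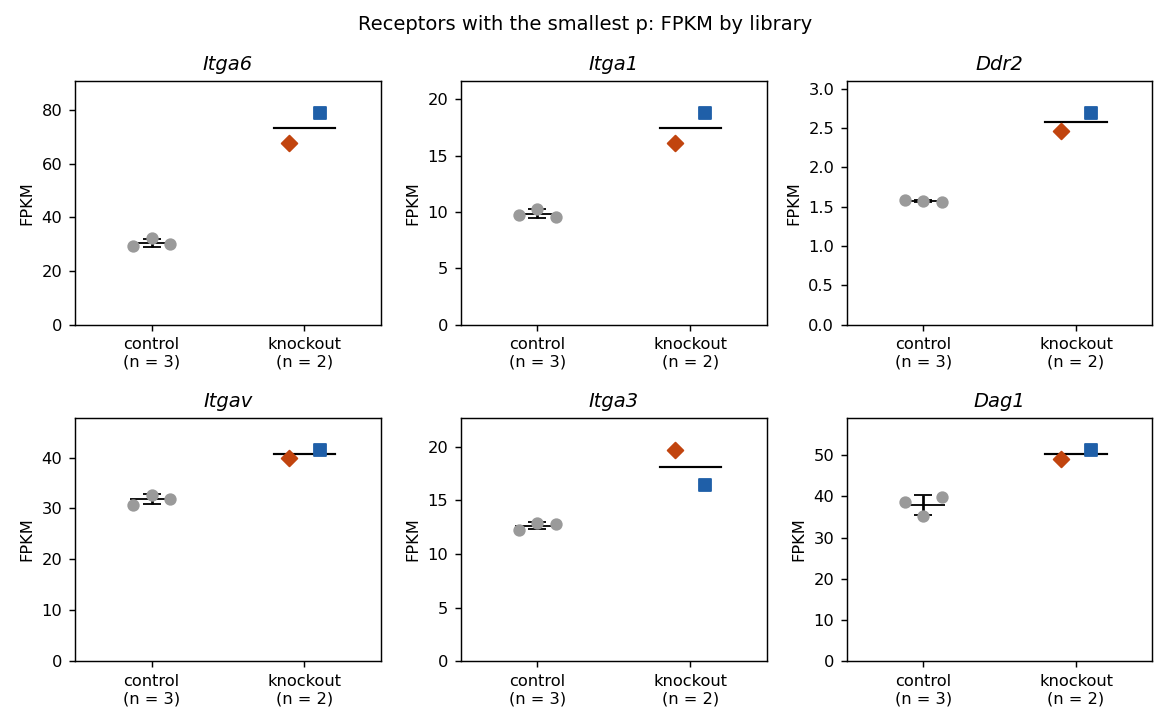
FPKM of the 5 receptors that rose and of Dag1, the receptor with the next smallest p, each on an axis from 0. Circles are the 3 controls with their mean and SD, the diamond is knockout 0, the square is knockout 1 and the line is the mean of those 2 libraries. In all 6 genes both knockout libraries lie above every control, for Itgav at 39.98 and 41.6 against at most 32.7.

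Of 6 tested beta subunits 0 passed by limma, with 3 higher and 0 lower at an unadjusted p under 0.05. At that p 12.5% of all genes were higher and 16.6% lower. Itgb1, the shared partner of the laminin- and collagen-binding alpha subunits, measured 83.7, 81.7 and 85.3 FPKM across controls, 118.0 for knockout 0 and 95.3 for knockout 1 (log2 change 0.34, SE 0.108, adjusted p = 0.116). Itgb4, which joins Itga6 in hemidesmosomes and has a long tail that binds intermediate filament linkers, measured 1.46, 1.79 and 1.66 FPKM across controls, 3.43 for knockout 0 and 2.25 for knockout 1 (0.53, SE 0.159, adjusted p = 0.106). Both subunits lay above every control in both knockout libraries, with knockout 0 the higher. Itgb4 was far below Itga6 in every library, and the ratio of Itga6 to Itgb4 FPKM was 18.0 to 20.0 across controls, 19.8 for knockout 0 and 35.1 for knockout 1. The ratio of Itga6 to Itgb1 was 0.349 to 0.395 across controls, 0.575 for knockout 0 and 0.828 for knockout 1. Itga6 RNA was thus higher relative to Itgb1 in both knockout libraries, and relative to Itgb4 only in knockout 1.

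None of the tested beta partners of Itgav passed the test. Itgb5, a vitronectin receptor subunit, averaged 43.95 ± 0.600 (SD, n = 3) across controls, 43.8 for knockout 0 and 43.0 for knockout 1 (log2 change -0.02, 95% interval -0.18 to 0.14). Itgb6, an epithelial subunit that activates latent TGF-beta, was at 48.6 ± 3.81, 49.8 and 49.0 (0.03, 95% interval -0.20 to 0.25). Itgb8, another activator of latent TGF-beta, split the knockout libraries, reading 14.2, 12.3 and 13.3 FPKM across controls, 12.8 for knockout 0 and 20.8 for knockout 1. The groups overlapped, and Itgb8 was not called (limma adjusted p = 0.398). Knockout 1 alone against the controls gave a log2 difference of 0.62 (adjusted p = 0.0414), with the spread taken from the controls only. The ratio of Itgb5 to Itgav FPKM was 1.36 to 1.41 across controls, 1.10 for knockout 0 and 1.03 for knockout 1, and that of Itgb6 to Itgav was 1.35 to 1.65, 1.25 and 1.18. Itgb3, the partner of Itgav and of Itga2b, was under the filter, at 0.397 to 0.441 across controls, 0.842 for knockout 0 and 0.383 for knockout 1.

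**Figure D3:**
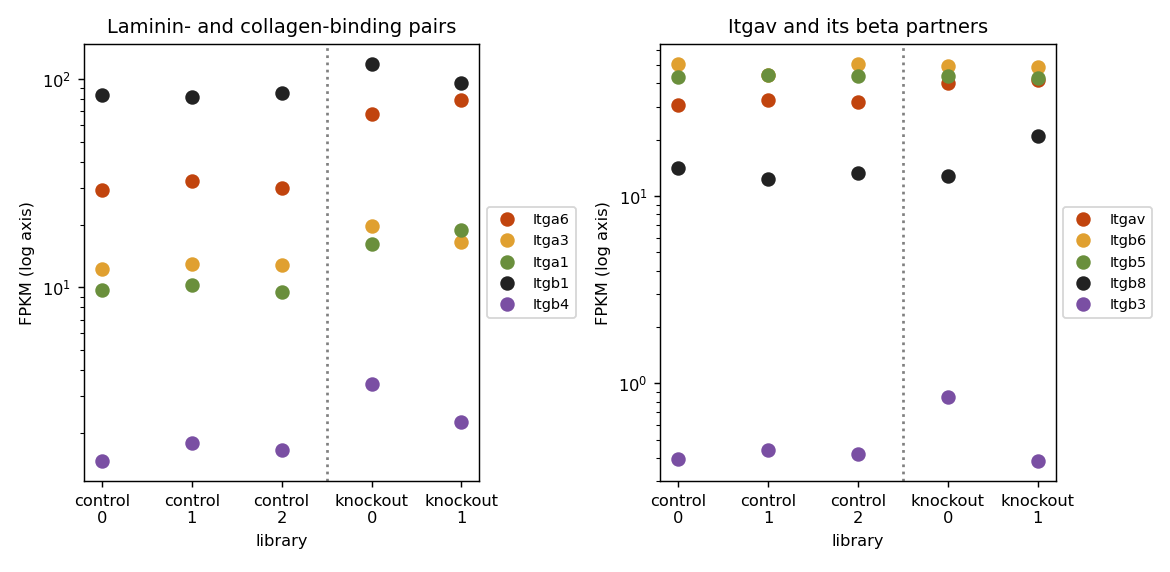
FPKM on a log axis in each of the 5 libraries, for Itga6, Itga3 and Itga1 with Itgb1 and Itgb4 (left) and for Itgav with its beta partners (right). Points are single libraries and the dotted line separates controls from knockouts. Itga6 goes from 29.2 to 32.3 in the controls to 67.8 and 78.9, while Itgb5 stays between 43.0 and 44.6 in all 5 libraries.

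Itgb2, Itgb7 and Fermt3 varied with leukocyte markers. Itgb2, the beta subunit of leukocyte integrins, measured 1.54, 1.31 and 1.29 FPKM across controls, 6.49 for knockout 0 and 2.38 for knockout 1 (log2 change 1.08, SE 0.332, limma adjusted p = 0.109). Itgb7, a lymphocyte subunit under the filter, was at 0.636 to 0.800, 1.78 and 0.921. Fermt3, the kindlin of blood cells, was at 1.30 to 1.60 across controls, 3.86 for knockout 0 and 1.77 for knockout 1. All 3 were above every control in both knockout libraries and were higher in knockout 0. Itga4, another subunit carried by leukocytes, was also above every control in both but had the reverse order. It was at 0.961 for knockout 0 and 1.05 for knockout 1. Of 11 leukocyte markers in the table, 10 were above every control in both libraries, where 21.9% of all genes were. The summed FPKM of the 11 was 80.1 to 90.4 across controls, 337.8 for knockout 0 and 119.5 for knockout 1. Ptprc, which marks all leukocytes, was at 2.32 to 2.60, 7.37 and 3.76. The summed FPKM of 9 fibroblast, pericyte and smooth muscle markers was 78.4 to 112.1, 200.1 and 113.2. Of the 9, 3 were above every control in both libraries, against 21.9% of all genes. In whole kidney, more cells of a type and more RNA per cell cannot be told apart, and the part of these cells in the results was not tested. Of the 5 receptors that rose, Itga3 had the order of both marker sums, with knockout 0 the higher, and Itga6, Itga1, Itgav and Ddr2 had the reverse. The 9 fibroblast, pericyte and smooth muscle markers differed in order among themselves too. Col1a1 was at 41.2 and 10.2 in knockout 0 and 1, and Acta2, Tagln, Pdgfrb, Des and Cnn1 were also higher in knockout 0. Higher in knockout 1 were Dcn (27.0 and 35.1), Pdgfra (4.05 and 7.24) and Myh11 (3.43 and 5.04). The summed FPKM of 8 endothelial markers was 205.8 to 215.7, 223.7 and 220.2. The 6 platelet markers summed to 2.40 to 2.49, 8.25 and 1.89, with Pf4 alone at 1.61 to 1.96, 6.85 and 1.60. Of the 6, 4 were above every control in knockout 0 and 0 in knockout 1, against 34.2% and 38.4% of all genes. The 6 urothelial markers, 5 of them below every control in both, summed to 16.1 to 23.8, 4.80 and 10.7. Over all genes 26.3% were below every control in both.

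**Figure D4:**
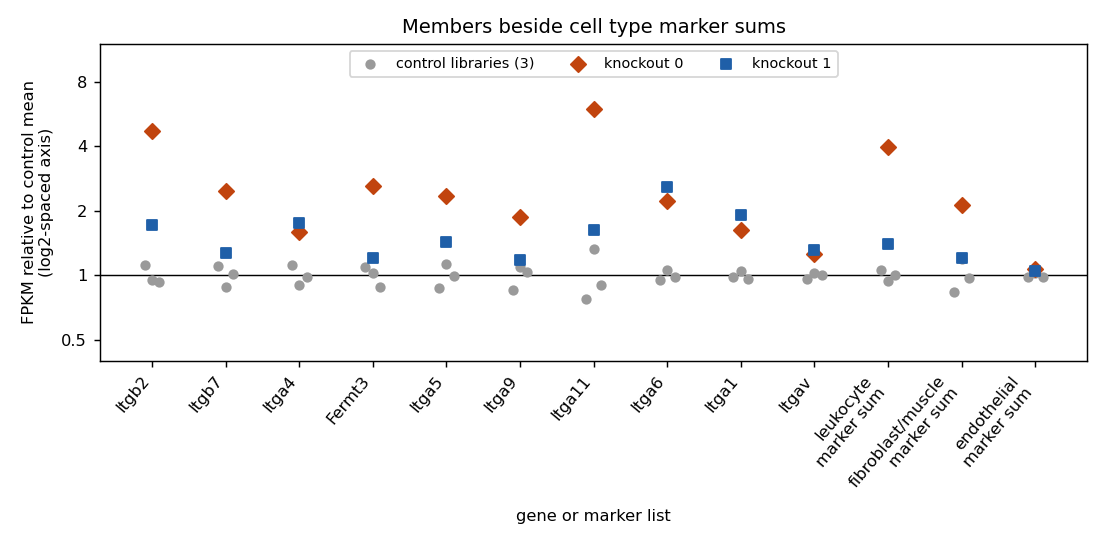
FPKM relative to the control mean, on a log2-spaced axis, for 10 members and for the summed markers of leukocytes, of fibroblasts with smooth muscle, and of endothelium. Circles are the 3 controls, diamonds knockout 0 and squares knockout 1. Itgb2 (4.71 times the control mean in knockout 0, 1.73 times in knockout 1) follows the order of the leukocyte sum (3.96 and 1.40), whereas Itga6 (2.23 and 2.59) has the opposite order.

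Of 5 receptors other than integrins 1 rose, and both knockout libraries lay above every control in 4. Over all genes the shares were 2.73% and 21.9%. Ddr2, a receptor tyrosine kinase for fibrillar collagen found in fibroblasts, rose from 1.59, 1.57 and 1.56 across controls to 2.46 for knockout 0 and 2.69 for knockout 1. The controls were almost equal and the knockout libraries well apart from them. The log2 fold change was 0.47 (SE 0.0900, limma adjusted p = 0.0461), and adjusted p was 0.126 to 0.213 without any single control. Ddr1, the epithelial collagen receptor of the same family, measured 36.2, 35.6 and 37.9 FPKM across controls, 58.1 for knockout 0 and 43.97 for knockout 1 (0.46, SE 0.128, adjusted p = 0.0935). Dag1, which encodes dystroglycan, a laminin and perlecan receptor, measured 38.7, 35.2 and 39.9 FPKM across controls, 49.1 for knockout 0 and 51.3 for knockout 1 (0.40, SE 0.0821, adjusted p = 0.0541). Dag1 fell just outside the threshold, and was called higher after rescaling to TPM (adjusted p = 0.0475), after median-of-ratios scaling (0.0497), after quantile normalization (0.0431) and at a mean FPKM of at least 5 (0.048). Bcam, a receptor for the laminin alpha chain of mature basement membranes, measured 73.9, 71.1 and 73.6 FPKM across controls, 140.5 for knockout 0 and 87.5 for knockout 1 (0.60, SE 0.199, adjusted p = 0.126). All 4 of these receptors were above every control in both knockout libraries, by more in knockout 0 for Ddr1 and Bcam. Cd151, a tetraspanin partner of laminin-binding integrins, was at 57.95 to 67.9 across controls, 92.7 for knockout 0 and 58.8 for knockout 1, so its groups overlapped.

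Promoter sequence was examined because 4 of the 5 receptors that rose have an entry in the RefSeq table of promoters (GRCm38.p6, the assembly behind mm10). The 250 bases before the start are shown 5′ to 3′, with capitals marking matches to the motifs searched on both strands. These were GGAATG (TEAD), TGACTCA or TGAGTCA (AP-1, each the reverse complement of the other), GGGCGG (SP1) and the CArG box (SRF). Vcl is added as an adaptor with several matches. The windows are chr13:115101965-115102214 (minus strand) for Itga1, chr11:95076715-95076964 (minus) for Itga3, chr2:83724147-83724396 (plus) for Itgav, chr1:170088945-170089194 (minus) for Ddr2 and chr14:20929148-20929397 (plus) for Vcl. The Ddr2 window lies inside the gene as GENCODE draws it, and Itga3 has a further RefSeq start that is not shown.
Itga1: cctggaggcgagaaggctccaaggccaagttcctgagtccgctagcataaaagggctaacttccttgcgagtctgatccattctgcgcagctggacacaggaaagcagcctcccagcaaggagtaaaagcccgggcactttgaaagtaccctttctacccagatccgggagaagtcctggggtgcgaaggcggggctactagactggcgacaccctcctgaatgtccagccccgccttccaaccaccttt
Itga3: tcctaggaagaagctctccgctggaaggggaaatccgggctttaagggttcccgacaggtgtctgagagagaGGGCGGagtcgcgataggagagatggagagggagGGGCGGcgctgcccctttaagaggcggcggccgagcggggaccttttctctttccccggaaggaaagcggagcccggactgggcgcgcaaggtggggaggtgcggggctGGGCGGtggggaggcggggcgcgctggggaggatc
Itgav: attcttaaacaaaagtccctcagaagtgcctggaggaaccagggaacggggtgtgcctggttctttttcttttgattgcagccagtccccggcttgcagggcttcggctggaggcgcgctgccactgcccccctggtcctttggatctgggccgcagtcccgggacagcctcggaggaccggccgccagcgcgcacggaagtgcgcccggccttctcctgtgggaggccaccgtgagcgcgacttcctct
Ddr2: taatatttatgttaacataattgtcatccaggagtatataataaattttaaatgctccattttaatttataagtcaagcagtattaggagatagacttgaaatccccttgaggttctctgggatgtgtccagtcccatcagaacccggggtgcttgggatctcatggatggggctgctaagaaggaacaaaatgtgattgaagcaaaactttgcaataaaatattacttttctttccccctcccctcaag
Vcl: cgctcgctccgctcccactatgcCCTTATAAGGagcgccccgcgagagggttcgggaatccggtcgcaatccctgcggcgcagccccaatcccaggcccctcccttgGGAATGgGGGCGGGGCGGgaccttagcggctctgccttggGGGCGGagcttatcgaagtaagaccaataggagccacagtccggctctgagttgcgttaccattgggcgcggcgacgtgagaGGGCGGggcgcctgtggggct
The Itga1, Itgav and Ddr2 windows hold none of these letters (Itgav has SP1 letters in the 50 bases after its start), Itga3 holds SP1 letters 3 times, and Vcl holds TEAD and SP1 letters and a CArG box. GC content of the windows was 57.6% for Itga1, 67.6% for Itga3, 64.4% for Itgav, 37.6% for Ddr2 and 67.2% for Vcl. Over the full 300-base windows, with 50 bases after the start included, SP1 letters were in 11 of 20 receptor genes and 10 of 12 adaptor genes with an entry, against 38.2% of 27025 genes. TEAD letters were in 1 of 20 and 1 of 12 (16.6% of all genes), AP-1 letters in 2 and 1 (5.95%) and a CArG box in 1 and 2 (1.81%). A match is a run of letters, not a shown binding site.

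The adaptors, of which 0 passed, are given by role. Talins open the integrin by binding the beta tail. Tln1 averaged 37.2 ± 0.690 (SD, n = 3) across controls, 38.5 for knockout 0 and 40.1 for knockout 1, and Tln2 averaged 21.5 ± 1.32, 13.0 and 20.1. Tln2 was thus far below the controls in knockout 0 and inside their range in knockout 1, and was not called (limma adjusted p = 0.22). Knockout 0 alone against the controls gave -0.68 (adjusted p = 0.0167), with the spread taken from the controls only. Kindlins work beside talin. Fermt1, the epithelial kindlin, had the smallest p of the adaptors, reading 9.57, 9.51 and 9.16 FPKM across controls, 10.97 for knockout 0 and 12.6 for knockout 1 (0.30, SE 0.0808, adjusted p = 0.0898). It lay above every control in both knockout libraries. Fermt2, the widespread kindlin, was at 33.9 ± 2.16 across controls, 31.2 for knockout 0 and 35.6 for knockout 1.

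Vinculin and zyxin are recruited to adhesions under tension. Vcl measured 20.8, 18.9 and 19.3 FPKM across controls, 30.3 for knockout 0 and 22.9 for knockout 1 (log2 change 0.41, SE 0.129, limma adjusted p = 0.115). Zyx measured 21.004, 19.3 and 20.8 FPKM across controls, 34.5 for knockout 0 and 24.1 for knockout 1 (0.48, SE 0.155, adjusted p = 0.12). Both lay above every control in both knockout libraries and were higher in knockout 0. Of the exonic bases of Vcl, 25.5% overlap those of Ap3m1 on the other strand, and since strandedness of the counting is not given in the sources used here, reads of the overlap cannot be told apart.

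No gene of the complex of integrin-linked kinase, PINCH and parvin passed either. Ilk averaged 63.3 ± 2.60 (SD, n = 3) across controls, 66.2 for knockout 0 and 61.1 for knockout 1 (log2 change 0.01, 95% interval -0.19 to 0.20). Of its exonic bases 76.7% overlap Taf10 on the other strand, so its level is uncertain for the same reason as that of Vcl. Parva, the widespread parvin, was at 42.1 ± 0.803, 45.0 and 44.1, and Parvb at 5.23 ± 1.10, 3.92 and 3.99. For Parvb control 1 was at 3.96, near the knockout libraries, and controls 0 and 2 were at 5.88 and 5.87. The PINCH genes Lims1 and Lims2 were at 15.8 ± 1.25, 16.3 and 14.7 and at 23.8 ± 0.0886, 27.9 and 23.2.

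The signalling scaffolds and tensins were likewise not called. Ptk2, focal adhesion kinase, averaged 12.8 ± 0.544 (SD, n = 3) across controls, 12.9 for knockout 0 and 13.9 for knockout 1 (log2 change 0.06, 95% interval -0.12 to 0.24). Pxn, paxillin, was at 51.1 ± 1.24, 52.1 and 44.9 (-0.08, 95% interval -0.30 to 0.14), and Bcar1, p130Cas, at 30.7 ± 1.502, 31.1 and 32.9 (0.06, 95% interval -0.13 to 0.25). All 3 intervals include 0. Tns1, a tensin that ties mature integrin adhesions to actin, had the highest control mean of all 42 genes. It measured 164.6, 120.2 and 162.0 FPKM across controls, 100.6 for knockout 0 and 116.7 for knockout 1 (-0.44, SE 0.166, limma adjusted p = 0.156). Both knockout libraries were below every control, knockout 1 only just below control 1. Tns3 was at 24.6 ± 1.02, 20.2 and 25.02.

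Other genes of the pathway were counted in lists that hold none of the 42. Against 2.73% of all genes called higher and 3.62% lower, 4 of 24 tested basement membrane ligands rose and 0 fell by limma. These were Npnt, the laminin chains Lamb1 (30.8 ± 0.773 in the controls, SD, n = 3, 46.7 in knockout 0 and 45.5 in knockout 1) and Lamc1 (8.43 ± 0.550, 13.97 and 13.1), and Frem2 (2.44 ± 0.152, 3.72 and 4.12). Laminins built on these chains are ligands of Itga6 and Itga3 dimers and of dystroglycan. Before adjustment 8 of the 24 were higher and 2 lower at p under 0.05, against 12.5% and 16.6% of all genes. Both knockout libraries lay above every control in 12 and below in 3 (21.9% and 26.3% of all genes). The list's median log2 fold change was 0.14. Of 21 tested interstitial and provisional ligands 0 rose and 1 was called lower. The gene called lower was Spp1, listed at 0 in both knockout libraries, a value that can be a failed estimate. Before adjustment 5 of the 21 were higher and 1 lower at p under 0.05, against 12.5% and 16.6% of all genes. Fgb and Thbs2, among those higher, had control means of 0.787 and 0.971, so they were tested only because they were high in the knockouts. The median log2 fold change of the 21 was 0.66, with 1.14 in knockout 0 and 0.16 in knockout 1. Both knockout libraries lay above every control in 7 and below in 1 (21.9% and 26.3% of all genes). Knockout 0 was above every control in 19 of the 21 and knockout 1 in 7, against 34.2% and 38.4% of all genes.

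Of 29 tested actin linkers that sit beyond the core adaptors 2 rose and 0 fell by limma, against 2.73% and 3.62% of all genes. Before adjustment 17 were higher and 0 lower at p under 0.05, against 12.5% and 16.6% of all genes. Palld, palladin, which bundles actin, rose from 5.61 ± 0.0589 (SD, n = 3) across controls to 8.81 for knockout 0 and 8.58 for knockout 1 (limma adjusted p = 0.0198). The LIM proteins Pdlim5 and Lpp were at 20.8 ± 0.328, 26.4 and 25.5 and at 9.45 ± 0.610, 12.3 and 12.7 (adjusted p = 0.0533 and 0.0537). Both knockout libraries lay above every control in 19 of the 29 and below in 0, against 21.9% and 26.3% of all genes. The median log2 fold change of the 29 was 0.32. The counterpart for the 17 adaptors was 6 above, 1 below and a median of 0.06, and the difference between the lists was not tested. Nedd9, a signalling scaffold of the same family as Bcar1, rose from 11.96 ± 0.764 to 18.7 and 17.8 (adjusted p = 0.0265), while Bcar1 did not pass. Of 13 cell contact proteins 0 passed by limma. Before adjustment 4 were higher and 1 lower at p under 0.05, against 12.5% and 16.6% of all genes. Itgax, a myeloid subunit and the only tested gene among 7 further integrins, was at 0.588 to 0.652 across controls, 5.15 for knockout 0 and 1.196 for knockout 1. Its control mean of 0.619 is under the filter, so it was tested only because it was high in the knockouts.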

How the data were processed

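Whole-kidney RNA of 3 control and 2 knockout libraries was compared. The authors deposited 1 table of FPKM, a column for each library. Build mm10 and bcl2fastq are named, per the submitters' processing notes, while aligner, FPKM program, annotation and strandedness were not given in the sources used here. Here, log2(FPKM + 1) was tested for 12640 rows whose mean FPKM reached 1, using limma 3.58.1 in R 4.3.3 (variance trend, two-sided, Benjamini-Hochberg adjustment over all tested rows, threshold 0.05). The procedure was also run on simulated data in which knockout libraries varied as the controls did. That run does not cover the real knockout libraries, which correlated with each other at 0.9605, against 0.9885 to 0.9904 among controls. Fold changes on this scale understate the change of low genes. With 3 libraries against 2, an exact permutation p is 0.1 or more. Positions and exon overlaps came from GENCODE M21, in which all 42 symbols occur once. Relative depth came from the commonest ratio between libraries of values under 0.05 FPKM. The members and lists were chosen with earlier results of these data known. All members were named, with statistics for those that passed and the 3 next by p in each of 4 role groups. Of other lists up to 4 genes by p were named, and some results of these lists are not reported here. Promoter motifs were counted with Python 3.11.15 and pandas 2.3.3, and plots drawn with matplotlib 3.10.9. No value among the 42 genes was listed at 0, and 0 value columns were left unmapped.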

Additional observations from a re-analysis of the deposited data

How the results depend on the processing

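Of the 5 receptors that rose, Itga6 was called under 11 of 14 alternatives, Itga1 under 9 of 14, Ddr2 under 7 of 13, Itgav under 6 of 14 and Itga3 under 5 of 14, and each had a positive log2 fold change in all of them. With no filter on low values 247 genes, 1 member and 1 receptor were called, in place of 802, 5 and 5. After quantile normalization, and with no variance trend, 3 members were called, all 3 receptors. Leaving out a library in turn gave 36 to 2599 genes, 0 to 18 members, 0 to 14 receptors and 0 to 4 adaptors. It gave a median log2 fold change of 0.28 to 0.51 for receptors, the lower value without knockout 0. The adaptors' median of 0.06 was 0.14 after rescaling to TPM and 0.11 after quantile normalization. With no filter the receptors' median, over all 25, was 0.35. Rescaling to TPM moved the split of all calls from 345 higher and 457 lower to 454 and 266, no filter to 141 and 106, and at a mean FPKM of at least 5 it was 292 and 543.

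A replicate block in the fit left 28 genes and 0 members, 0 of them receptors, called, and the adjusted p of Itga6 was 0.119. The libraries share only a number. Deviations from the group means correlated, across genes, at 0.0863 for number 0 and 0.00236 for number 1. Control 2, which has no partner, correlated at 0.0918 with knockout 1. With 2 knockout libraries their deviations mirror each other, so these values cannot show whether equal numbers are paired. With 5 libraries and 3 residual degrees of freedom, and with knockout 0 the shallowest, differences of low genes are poorly resolved.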
